A study of Mus musculus with 8 samples.

Results

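The glucocorticoid signaling genes described here are 8 genes taken by name from the 16397 genes of the count table, by a rule that uses no measured value. They are the receptors Nr3c1 and Nr3c2, the corticosterone-converting enzymes Hsd11b1 and Hsd11b2, and the receptor target genes Fkbp5, Tsc22d3, Per1 and Sgk1. All 8 were in the table. Of these, 6 passed the filter on low counts and were tested, and the other 2, Hsd11b1 and Hsd11b2, had mean counts of 9.625 and 7.5 per sample and are given as reads.

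Corticosterone is the main glucocorticoid of the mouse, and it acts through 2 nuclear receptors that wait in the cytoplasm on chaperones and move to the nucleus once hormone is bound. The mineralocorticoid receptor (Nr3c2) holds corticosterone more tightly than the glucocorticoid receptor (Nr3c1), and both are known for high levels in the adult hippocampus. Within a cell, the enzyme encoded by Hsd11b1 regenerates corticosterone from its inactive keto form and that encoded by Hsd11b2 inactivates it, a step known in the fetal brain and the placenta for limiting exposure to maternal hormone.

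Hippocampi were dissected at embryonic day 15.5 from C57Bl/6J mouse offspring, and their total RNA was sequenced in 8 libraries. In the 4 IUGR samples, the dam carried a micro-osmotic pump with U-46619, a thromboxane A2 analog that raises maternal blood pressure, from E12.5. In the 4 sham samples, the dam carried a pump with vehicle from the same day, so surgery and pump are shared by both groups. Both sexes were used, with the sex of each sample not stated, and nothing in the sources used here says which samples were littermates, so that p values measure the spread between these samples only. All 4 IUGR titles begin with T1, while sham samples 1 and 3 begin with S1 and sham samples 2 and 4 with S3, and what the prefixes stand for is not stated. Whatever the prefix T1 marks cannot be told apart from IUGR.

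The IUGR libraries held 12919546 to 16672463 counts and the sham libraries 11212632 to 15405748. All 11 hippocampal and pallial markers examined, among them Emx1 and Lhx2, were detected in every sample, with a summed level, in counts per 1000000 (CPM), of 1157 to 1487 for IUGR samples and 972 to 2186 for sham samples. Of these 11 markers, 10 had a log2 fold change below 0 (median -0.34) and none was called. Choroid plexus and neuron markers differed between the groups in summed level. The summed level of 17 choroid plexus markers spanned 56.9 to 1345 CPM for IUGR samples and 5617 to 12311 CPM for sham samples, and all 15 tested ones were lower in IUGR by fold change, 3 of them past the threshold. Ttr, which was not among the tested ones, made up most of this sum in every sham sample. Its level was 10.2 to 966 CPM for IUGR samples and 4550 to 10851 CPM for sham samples. The summed level of 10 neuron markers did not overlap between the groups, at 5009 to 5431 CPM for IUGR samples and 3600 to 4587 CPM for sham samples, with all 10 above 0 in log2 fold change (median 0.46) and none called. The part of either in the values below was not tested. The share of counts on the mitochondrial ribosomal RNA mt-Rnr1 was 1.29% to 2.53% in IUGR samples 2 and 4 and sham samples 1 and 2, and 0.0176% to 0.0872% in the other 4. Xist was at 948 CPM or more in IUGR samples 1, 2 and 4 and sham sample 1, and at most 5.85 CPM elsewhere. High Xist was thus found in 3 IUGR samples and 1 sham sample, so the groups were unbalanced in it. What this level says of the sex of each sample was not tested.

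None of the 6 tested genes was called between IUGR and sham hippocampi. To be called, a gene needed an adjusted p no higher than 0.05 in edgeR's quasi-likelihood test together with a log2 fold change of 1 or more up or down, and 1.46% of all 13707 tested genes were called (1.55% without the fold criterion). None of the 6 had an unadjusted p under 0.05 either, where 11.1% of all tested genes did. In DESeq2's Wald test 1 of them did, Sgk1, beside 11.9% of all tested genes, and in limma-voom none did, beside 11.0%. The 4 IUGR and 4 sham values overlapped for all 8 genes, while the groups did not overlap for 7.14% of tested genes. Dissected tissue was measured as a whole, so that a lower share of a cell type and a lower level per cell cannot be told apart for any gene below.

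**Figure D1:**
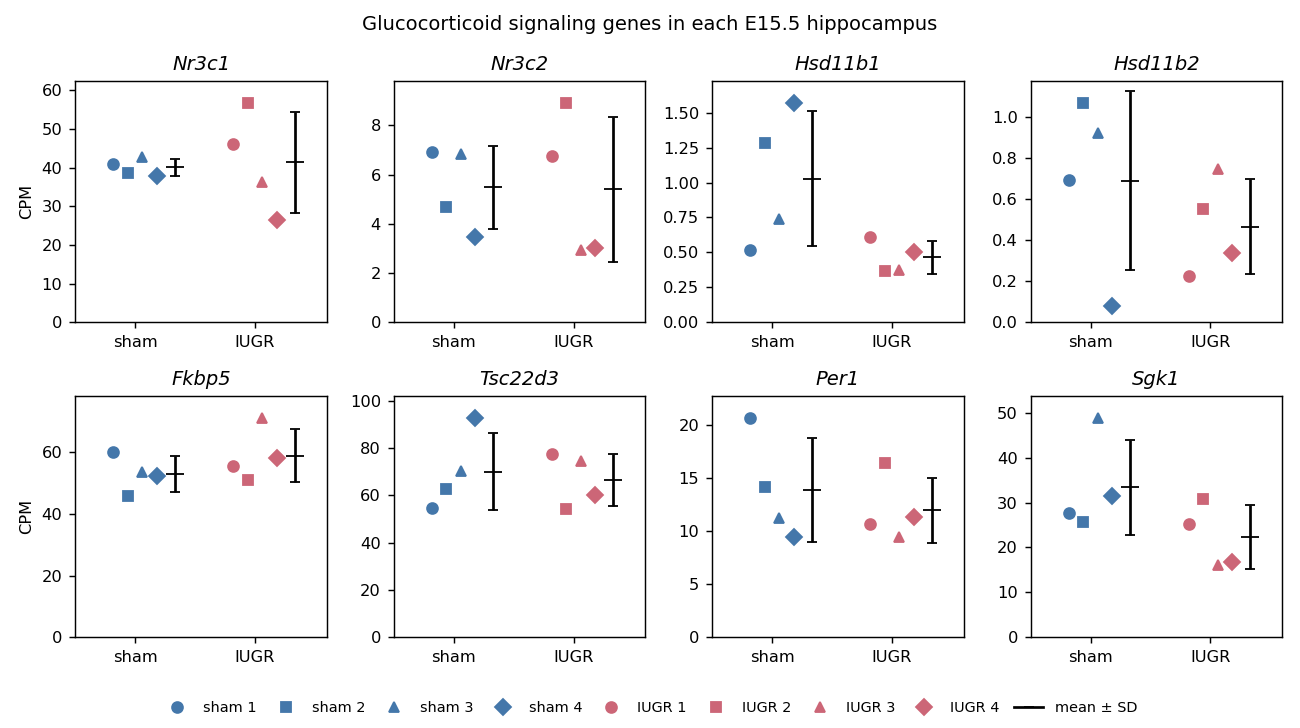
CPM of each of the 8 genes in the 4 sham (blue) and 4 IUGR (red) samples, 1 symbol per sample, with the group mean ± SD in black and an axis from 0 in each panel. The groups overlap in every panel, and the IUGR values of Nr3c1 lie on both sides of the narrow sham range.

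Nr3c1 (ENSMUSG00000024431, GRCm38 chr18:39410545-39519421, minus strand) encodes the glucocorticoid receptor. Its level was 46.1, 56.7, 36.2 and 26.4 CPM in IUGR samples 1 to 4 and 40.9, 38.6, 42.7 and 37.8 CPM in sham samples 1 to 4. IUGR samples 1 and 2 lay above every sham sample and IUGR samples 3 and 4 lay below every one. IUGR averaged 41.3 ± 13.0 CPM and sham 40.0 ± 2.24 CPM (SD, n = 4 each), which gave a log2 fold change of 0.05 (SE 0.21, edgeR adjusted p = 1.00), with a 95% interval of 0.749 to 1.43 for the fold. The means were thus close while the spread was not. The SD of log2 CPM was 0.47 in IUGR and 0.08 in sham, a ratio of 5.89, which stood at the 98.5th percentile of the same ratio over all tested genes, whose median was 1.04. This ratio was looked at after the values were seen and was not tested.

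Nr3c2 (ENSMUSG00000031618, chr8:76899442-77245012, plus strand), the mineralocorticoid receptor gene, was measured at 6.77, 8.91, 2.92 and 3.03 CPM in IUGR samples 1 to 4 and at 6.93, 4.70, 6.84 and 3.45 CPM in sham samples 1 to 4. IUGR samples 3 and 4 were the lowest of all 8 samples for this receptor and IUGR sample 2 was the highest. IUGR averaged 5.41 ± 2.94 CPM and sham 5.48 ± 1.70 CPM (SD, n = 4 each), which gave a log2 fold change of -0.01 (SE 0.40, edgeR adjusted p = 1.00). The 95% interval of the fold ran from 0.536 to 1.84, so differences up to that size in either direction were not excluded. Its SD ratio of 1.69 stood at the 75.0th percentile.

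The balance of the receptors was compared per length, as CPM per kilobase of merged exons. Nr3c1 exceeded Nr3c2 in every sample, by 5.74, 5.36, 10.4 and 7.33 times in IUGR samples 1 to 4 and by 4.98, 6.91, 5.26 and 9.23 times in sham samples 1 to 4. The geometric means of this ratio were 6.96 in IUGR and 6.39 in sham, and the ranges overlapped almost entirely.

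Both receptors varied within the IUGR group together with markers of neighbouring tissue. The summed choroid plexus level was 907, 1345, 82.8 and 56.9 CPM in IUGR samples 1 to 4, and that of 13 meningeal fibroblast markers was 1004, 3292, 497 and 111 CPM. Nr3c1 had the same order of the 4 IUGR samples as both sums. In sham the choroid plexus sum was 7972, 5617, 12311 and 11006 CPM and the meningeal sum 777, 399, 544 and 471 CPM, beside a Nr3c1 level that hardly varied. After each group's mean log2 level was removed, the correlation of Nr3c1 across the 8 samples was r = 0.92 with the mean log2 level of the choroid plexus list, 0.96 with that of the meningeal list and 0.92 with that of 9 microglia and macrophage markers. For Nr3c2, r was 0.88 with the choroid plexus list and 0.80 with the meningeal list, and between the receptors it was 0.85. These are descriptions over 8 libraries, in which IUGR samples 2 and 4 lie at the ends. Of the 13 meningeal markers, all had a log2 fold change above 0 and none was called (median 1.12). The only marker at 0 in any sample was Tmem72 of the choroid plexus list, in IUGR sample 3. The part of these tissues in the receptor levels was not tested.

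**Figure D2:**
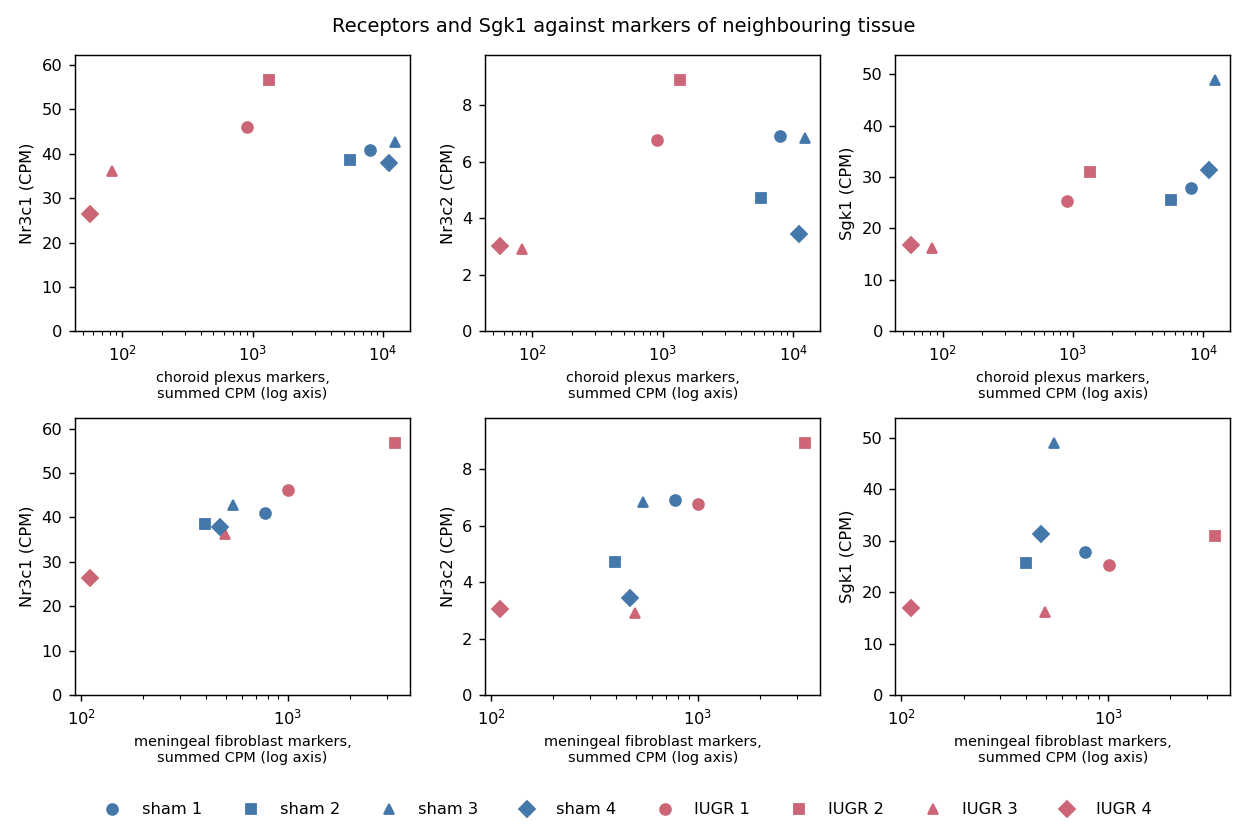
CPM of Nr3c1, Nr3c2 and Sgk1 (vertical, from 0) against the summed CPM of choroid plexus markers (upper row) and meningeal fibroblast markers (lower row) on a log axis, 1 symbol per sample, sham in blue and IUGR in red. Nr3c1 rises from 26.4 to 56.7 CPM along both marker sums within the IUGR samples, while the sham samples stay between 37.8 and 42.7 CPM.

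Both enzymes of corticosterone conversion were near the limit of detection. Hsd11b1 (ENSMUSG00000016194, chr1:193221634-193264075, minus strand) had 8, 6, 5 and 6 reads in IUGR samples 1 to 4 and 6, 18, 8 and 20 reads in sham samples 1 to 4. The reads of sham samples 2 and 4, whose titles begin with S3, set the sham level. The other sham samples, whose titles begin with S1, had counts like those of IUGR. The summed reads were 25 in IUGR and 52 in sham, a ratio of 0.432 after scaling to library size, with a 95% interval of 0.257 to 0.710 that covers counting error only. IUGR averaged 0.464 ± 0.115 CPM and sham 1.03 ± 0.483 CPM (SD, n = 4 each), and the exact two-sided permutation test of log2 CPM gave p = 0.0571, with 0.0286 the smallest p that 4 against 4 samples allow. In edgeR without the filter on counts, the log2 fold change was -1.11 (SE 0.46, edgeR adjusted p = 0.354). It also passed the filter in 4 of the comparisons with 1 sample removed, and over these 5 fits the adjusted p was 0.229 to 0.550. The gene overlaps Lamb3 on the opposite strand, and the strand setting of the counting is not given in the sources used here, so reads of the other gene cannot be separated at such counts.

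Hsd11b2 (ENSMUSG00000031891, chr8:105518755-105523988, plus strand), the inactivating enzyme, had 3, 9, 10 and 4 reads in IUGR samples 1 to 4 and 8, 15, 10 and 1 reads in sham samples 1 to 4. Sham samples held both the highest and the lowest count. The summed reads were 26 in IUGR and 34 in sham, a scaled ratio of 0.688 (95% interval 0.396 to 1.18, counting error only), and the exact two-sided permutation test gave p = 0.714. Per length, the ratio of Hsd11b2 to Hsd11b1 was 0.866, 3.47, 4.62 and 1.54 in IUGR samples 1 to 4 and 3.08, 1.93, 2.89 and 0.116 in sham samples 1 to 4. These ratios rest on as few as 1 read and differed more within each group than between the groups.

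Among the receptor target genes, Fkbp5 (ENSMUSG00000024222, chr17:28399094-28517527, minus strand) encodes the immunophilin FKBP51, a cochaperone that lowers the receptor's affinity for hormone and is itself induced by it. Its level was 55.4, 51.1, 71.2 and 58.1 CPM in IUGR samples 1 to 4 and 60.1, 45.8, 53.5 and 52.4 CPM in sham samples 1 to 4. Apart from IUGR sample 3, every IUGR value lay within the sham range. IUGR averaged 58.9 ± 8.66 CPM and sham 53.0 ± 5.83 CPM (SD, n = 4 each), which gave a log2 fold change of 0.15 (SE 0.14, edgeR adjusted p = 0.960). The 95% interval of the fold was 0.891 to 1.39, the narrowest of the 6 tested genes. With 1 sample left out the log2 fold change ran from 0.087, without IUGR sample 3, to 0.25, without IUGR sample 2, and was 0.091 without sham sample 2. It was 0.053 against the S1 sham samples alone and 0.29 against the S3 sham samples alone. Fkbp4, which encodes the related cochaperone FKBP52 that takes the opposite part in the receptor complex, averaged 400 ± 33.6 CPM for IUGR samples and 340 ± 31.7 CPM for sham samples (log2 fold change 0.24, SE 0.12, edgeR adjusted p = 0.546). The ratio of Fkbp5 to Fkbp4 per length had a geometric mean of 0.0433 in IUGR and 0.0459 in sham.

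Sgk1 (ENSMUSG00000019970, chr10:21882184-21999903, plus strand) encodes a kinase that both receptors induce and that regulates ion channels and transporters. It was the tested gene of the 6 with the lowest p. Its level was 25.3, 30.9, 16.1 and 16.9 CPM in IUGR samples 1 to 4 and 27.8, 25.6, 48.9 and 31.4 CPM in sham samples 1 to 4. IUGR samples 1, 3 and 4 lay below every sham sample, and IUGR sample 2 lay within the sham range, in which sham sample 3 was the highest. IUGR averaged 22.3 ± 7.10 CPM and sham 33.4 ± 10.6 CPM (SD, n = 4 each). The log2 fold change was -0.58 (SE 0.27, edgeR adjusted p = 0.466), or 0.669 times the sham level with a 95% interval of 0.444 to 1.01. The exact two-sided permutation test gave p = 0.114. Without sham sample 3 the log2 fold change was -0.29, and without IUGR sample 2 it was -0.75, the ends of the range over the fits that left out 1 sample, whose adjusted p was between 0.282 and 0.986. Against the S1 sham samples alone it was -0.78 and against the S3 sham samples alone -0.33.

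Sgk1 also moved with markers of other cells. After group means were removed, its r over the 8 samples was 0.93 with 9 endothelial markers and 0.79 with the choroid plexus list. The summed endothelial level ran from 224 to 387 CPM among IUGR samples and from 218 to 319 CPM among sham samples. In log2 fold change, 7 of 9 endothelial markers were above 0 with none called. All 15 tested choroid plexus markers were below 0, with 3 called. Sgk1 was lower on average in IUGR. IUGR sample 2 had the highest endothelial sum and the highest Sgk1 level of its group, as sham sample 3 did in the sham group. The part of these cells in the Sgk1 level was not tested. In the samples with over 1% of counts on mt-Rnr1 the difference of mean log2 CPM (IUGR minus sham) was -0.22, and in the samples under 0.1% it was -0.96, with 2 samples per group in each.

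The promoters of Sgk1, Tsc22d3 and Per1 are shown because the first holds a complete glucocorticoid response element and the other 2 belong to genes whose levels moved in opposite directions across libraries. The sequences are RefSeq windows of GRCm38.p6 from 250 bases before to 50 after an annotated transcript start, written on the strand of the gene, with motif matches in capitals. Windows were found for 6 of the 8 genes, 14 windows in all. The motifs searched on both strands were the full element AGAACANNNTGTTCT, the hexamer AGAACA, which the full element contains, and the E-box CACGTG, the clock factors' element.
Sgk1, chr10:21993640-21993939, plus strand: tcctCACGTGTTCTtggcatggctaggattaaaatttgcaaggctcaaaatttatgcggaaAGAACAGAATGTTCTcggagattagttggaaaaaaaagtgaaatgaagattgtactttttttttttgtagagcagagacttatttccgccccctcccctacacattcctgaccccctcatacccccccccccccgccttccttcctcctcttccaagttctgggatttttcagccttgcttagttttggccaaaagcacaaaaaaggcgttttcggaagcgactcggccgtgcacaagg
Tsc22d3, chrX:140600473-140600772, minus strand: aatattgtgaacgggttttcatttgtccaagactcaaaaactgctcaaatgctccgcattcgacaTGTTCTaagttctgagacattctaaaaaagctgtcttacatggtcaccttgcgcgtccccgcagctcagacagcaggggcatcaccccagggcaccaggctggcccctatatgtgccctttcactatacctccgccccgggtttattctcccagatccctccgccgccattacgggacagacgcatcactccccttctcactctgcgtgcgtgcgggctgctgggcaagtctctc
Per1, chr11:69098699-69098998, plus strand: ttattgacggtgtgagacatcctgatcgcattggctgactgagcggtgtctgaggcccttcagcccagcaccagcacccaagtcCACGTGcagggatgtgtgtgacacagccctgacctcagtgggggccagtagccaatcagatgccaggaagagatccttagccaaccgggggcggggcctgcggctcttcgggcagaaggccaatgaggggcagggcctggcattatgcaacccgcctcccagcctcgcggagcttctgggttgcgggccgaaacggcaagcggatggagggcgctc
In the Sgk1 window the full element starts 189 bases before the transcript start, and an E-box at 246 bases overlaps a hexamer at 242 bases before it. The full element is present in 3 of 32851 windows of the table (0.00913%), the hexamer in 19.0% and the E-box in 7.15%. This window is 1 of 6 for Sgk1, at 1 of its alternative starts, and the counts are per gene, so the transcripts from it were not measured apart. The Tsc22d3 window, 1 of 3, has a hexamer at 185 bases and the Per1 window, 1 of 2, an E-box at 166 bases before the start. Over the 14 windows, the full element was in 1, a hexamer in 4 and an E-box in 3, the third in the only Fkbp5 window. A match is a run of letters and not a measured binding site.

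Tsc22d3 (ENSMUSG00000031431, chrX:140539528-140600659, minus strand) encodes GILZ, a leucine zipper protein induced by glucocorticoids in many cell types. Its level was 77.3, 54.2, 74.5 and 59.9 CPM in IUGR samples 1 to 4 and 54.5, 62.8, 70.1 and 92.7 CPM in sham samples 1 to 4. High and low values occurred in both groups. IUGR averaged 66.5 ± 11.2 CPM and sham 70.0 ± 16.4 CPM (SD, n = 4 each), which gave a log2 fold change of -0.08 (SE 0.19, edgeR adjusted p = 1.00), with a 95% interval of the fold from 0.711 to 1.27.

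Per1 (ENSMUSG00000020893, chr11:69095217-69109960, plus strand), a repressor in the circadian clock that glucocorticoids induce directly, was at 10.7, 16.4, 9.44 and 11.4 CPM in IUGR samples 1 to 4 and 20.7, 14.2, 11.3 and 9.41 CPM in sham samples 1 to 4. The sham samples gave both the highest and the lowest value. IUGR averaged 11.99 ± 3.06 CPM and sham 13.9 ± 4.94 CPM (SD, n = 4 each), which gave a log2 fold change of -0.21 (SE 0.27, edgeR adjusted p = 1.00), with a 95% interval of the fold from 0.568 to 1.32.

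Tsc22d3 and Per1 varied in opposite directions across the samples of both groups, with r = -0.91 after group means were removed (n = 8, a description). Of all pairs of the 6 tested genes, this r was the largest in size. Both genes split by the mt-Rnr1 share of the library rather than by IUGR. Tsc22d3 was 54.2 to 62.8 CPM in the 4 samples with over 1% of counts on mt-Rnr1 and 70.1 to 92.7 CPM in the 4 samples with under 0.1%. Per1 was 11.4 to 20.7 CPM in the former and 9.41 to 11.3 CPM in the latter. Neither gene's levels overlapped between these 4 and 4 libraries, as was so for 6.63% of all tested genes, and the levels of the other 6 genes did. With the mt-Rnr1 level as a term in edgeR, the log2 difference (over 1% minus under 0.1%) was -0.44 (SE 0.13, adjusted p = 0.369) for Tsc22d3 and 0.61 (SE 0.21, adjusted p = 0.404) for Per1, so that neither passed the adjustment over all genes, which 4 genes did. The split was chosen after the data were seen, and what lies behind the mt-Rnr1 share was not tested. With this term none of the 6 genes was called between IUGR and sham.

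**Figure D3:**
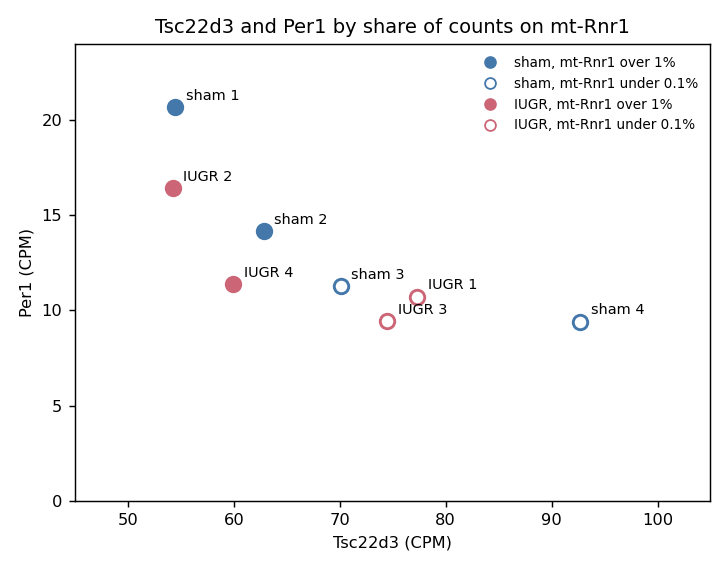
Per1 against Tsc22d3 in CPM, 1 point per sample, sham in blue and IUGR in red, filled where mt-Rnr1 took over 1% of counts and open where it took under 0.1%. The filled points lie at 54.2 to 62.8 CPM of Tsc22d3 and the open points at 70.1 to 92.7 CPM, with both groups on each side.

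By level per length, Tsc22d3 was the highest of the 8 genes, at 15.7 ± 3.03 CPM per kilobase (SD, n = 8), and its range lay above that of every other. Fkbp5 at 5.91 ± 0.797, Sgk1 at 5.68 ± 2.09 and Nr3c1 at 5.29 ± 1.13 CPM per kilobase followed and did not differ beyond their spread. Fkbp5 exceeded Sgk1 in 4 of 8 samples, which were IUGR samples 1, 3 and 4 and sham sample 1. Sgk1 exceeded Nr3c1 in 5 of 8, which were every sham sample and IUGR sample 4, the latter at 3.4375 against 3.4326 CPM per kilobase. The order of these genes thus differed between the groups. Per1 came next at 2.30 ± 0.699 CPM per kilobase, below Nr3c1 in all 8 samples although their ranges overlap. Nr3c2 followed at 0.841 ± 0.344, and then Hsd11b2 at 0.315 ± 0.188 and Hsd11b1 at 0.175 ± 0.104 CPM per kilobase, which overlapped. Among all tested genes the level of Tsc22d3 stood at the 72.8th percentile, that of Nr3c1 at the 41.6th and that of Nr3c2 at the 11.3th.

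The genes most like 3 of the members across the 8 samples, after group means were removed, were taken from all tested genes for the members with the lowest p. For Sgk1 they were Lman1, Kcna5 and Cyb561, with r of 0.97 each. For Fkbp5 they were Exog (0.97), Acss1 (0.96) and Wrap53 (0.95), and for Per1 the first 2 were Cacna2d2 and Sobp (0.99 each). With 8 samples and 13707 genes to choose from, such values are a description.

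The wider pathway was read from 10 lists with 110 distinct tested genes, of which none was called between IUGR and sham. Of these, 4 had an unadjusted p under 0.05 in edgeR, where 11.1% of all tested genes did. The count was 6 in DESeq2's Wald test, beside 11.9% of all tested genes, and 6 in limma-voom, beside 11.0%. The groups did not overlap for 3 of the 110, beside 7.14% of all tested genes. Among 23 tested glucocorticoid target genes other than the members, 13 had a log2 fold change above 0 and 10 below, with a median of 0.01 beside -0.02 for all tested genes. The 2 with an unadjusted p under 0.05 were the metallothionein genes Mt1 and Mt2, whose products bind zinc and which glucocorticoids and metals induce. Mt1 was 7.76, 9.16, 5.25 and 7.58 CPM in IUGR samples 1 to 4 and 14.0, 18.4, 12.3 and 12.7 CPM in sham samples 1 to 4, without overlap. Its log2 fold change was -0.95 (SE 0.22, edgeR adjusted p = 0.0710), and over the other settings the adjusted p was 0.00737, in DESeq2's Wald test, to 0.419. Mt2 averaged 7.17 ± 1.45 CPM for IUGR and 10.8 ± 3.06 CPM for sham (SD, n = 4 each), with overlap, a log2 fold change of -0.59 (SE 0.26, edgeR adjusted p = 0.433).

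Among 9 tested genes of corticosteroid synthesis, metabolism and transport, Abcb1a, the P-glycoprotein that exports corticosteroids at the blood-brain barrier, was 9.13, 11.9, 8.62 and 9.19 CPM in IUGR samples 1 to 4 and 4.85, 3.49, 6.47 and 5.96 CPM in sham samples 1 to 4. All IUGR values were higher, with a log2 fold change of 0.90 (SE 0.24, edgeR adjusted p = 0.109, and 0.0154, in DESeq2's Wald test, to 0.459 over the other settings). Of 9 endothelial markers, 7 also had a log2 fold change above 0, with a median of 0.52 and none called, while their summed level overlapped between the groups. The part of endothelium in the Abcb1a difference was not tested. Akr1c14, an enzyme of steroid reduction, had a log2 fold change of -0.44 (edgeR adjusted p = 0.934). In the stress axis list, where 4 of 13 genes were tested, the vasopressin receptor gene Avpr1a was 3.73, 3.13, 1.05 and 3.54 CPM in IUGR samples 1 to 4 and 0.855 to 1.39 CPM in sham. IUGR sample 3 lay within the sham range and the other 3 lay above it (log2 fold change 1.41, SE 0.42, edgeR adjusted p = 0.157). IUGR sample 3 was also the only IUGR sample low in Xist, and sham sample 1, the highest sham sample for Avpr1a, the only sham sample high in it. With a term for the Xist level the log2 fold change was 0.75 (SE 0.41), in a fit that called 0 of all genes. The part of the Xist level in the Avpr1a difference was not tested. Over all alternatives the adjusted p of Avpr1a was between 0.0524, without IUGR sample 3, and 0.945, with the Xist term. Crhr1, the receptor for corticotropin-releasing hormone, had a log2 fold change of 0.82 (SE 0.39, edgeR adjusted p = 0.500).

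No gene of the other 7 lists had an unadjusted p under 0.05 in edgeR; Nrip1 and Fkbp4 did in DESeq2's Wald test (11.9% of all tested genes), and Nrip1 did in limma-voom (11.0%). The 13 tested chaperones and cochaperones lay between -0.22, the value of Dnajb1, and 0.24, that of Fkbp4, in log2 fold change. Of the 12 coregulators, 3 had a log2 fold change above 0 and 9 below, with a median of -0.06, and Nrip1, a corepressor of nuclear receptors, was at 0.41 (SE 0.20, edgeR adjusted p = 0.517). The 14 clock genes ran from -0.58 to 0.76, with 9 below 0, among them Per3 at -0.45 (edgeR adjusted p = 0.557) and Tef at -0.22 (edgeR adjusted p = 0.682). Cry1, a further clock repressor, averaged 36.6 ± 1.04 CPM for IUGR and 32.6 ± 2.02 CPM for sham without overlap, a log2 fold change of 0.17 (edgeR adjusted p = 0.821). It was named because its groups did not overlap.

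The 4 tested steroid receptors of the NR3 family other than the members ran from -0.47 for Esrrg (edgeR adjusted p = 0.977) to 0.91 for Pgr, the progesterone receptor gene (edgeR adjusted p = 0.687). Among 7 relatives and substrates of Sgk1, the substrate Ndrg2 had a log2 fold change of -0.32 (edgeR adjusted p = 0.476) and the activating kinase Pdpk1 of 0.10 (edgeR adjusted p = 0.999). Among 10 paralogs of Tsc22d3 and Fkbp5, Fkbp9 had -0.37 (edgeR adjusted p = 0.546) and Tsc22d4 -0.39 (edgeR adjusted p = 0.735). The 15 immediate early genes, whose rapid induction can mark handling or activity, had 7 values above 0 and 8 below, with Ier3 at 0.80 (edgeR adjusted p = 0.752) and Arc at -0.39 (edgeR adjusted p = 0.921).

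Several of these list values, none of them called, rested on single samples, and those that moved by over 1.5 times are given here as log2 fold changes. Without IUGR sample 2, Ier3 was at 0.15, Esrrg at -0.12, Arc at -0.21, Tef at -0.12, Dnajb1 at -0.13 and Pdpk1 at 0.16. Without IUGR sample 1, Tsc22d4 was at -0.24 and Pdpk1 at 0.059, and without IUGR sample 4, Esrrg was at -0.79 and Akr1c14 at -0.26. Among the sham samples, leaving out sample 1 put Per3 at -0.29 and Pgr at 1.38, and leaving out sample 2 put Pgr at 0.60, Arc at -0.21 and Tsc22d4 at -0.23. Without sham sample 3, Esrrg was at -0.17, Dnajb1 at -0.11 and Pdpk1 at 0.17, and without sham sample 4, Akr1c14 was at -0.13. The choice of sham samples mattered as much. Against the S1 and then the S3 sham samples alone, Pgr was at 0.20 and 2.22, Nrip1 at 0.17 and 0.72, Akr1c14 at -0.06 and -0.70, Esrrg at -0.90 and 0.16, and Cry1 at 0.091 and 0.27. Mt2 was at -0.33 against the S1 sham samples, and against the S3 sham samples Per3 was at -0.28, Dnajb1 at -0.096 and Pdpk1 at 0.15. With the Xist term, Crhr1 was at 0.41, Nrip1 at 0.21, Pgr at 0.59, Ier3 at 0.40, Per3 at -0.68 and Tef at -0.11.

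**Figure D4:**
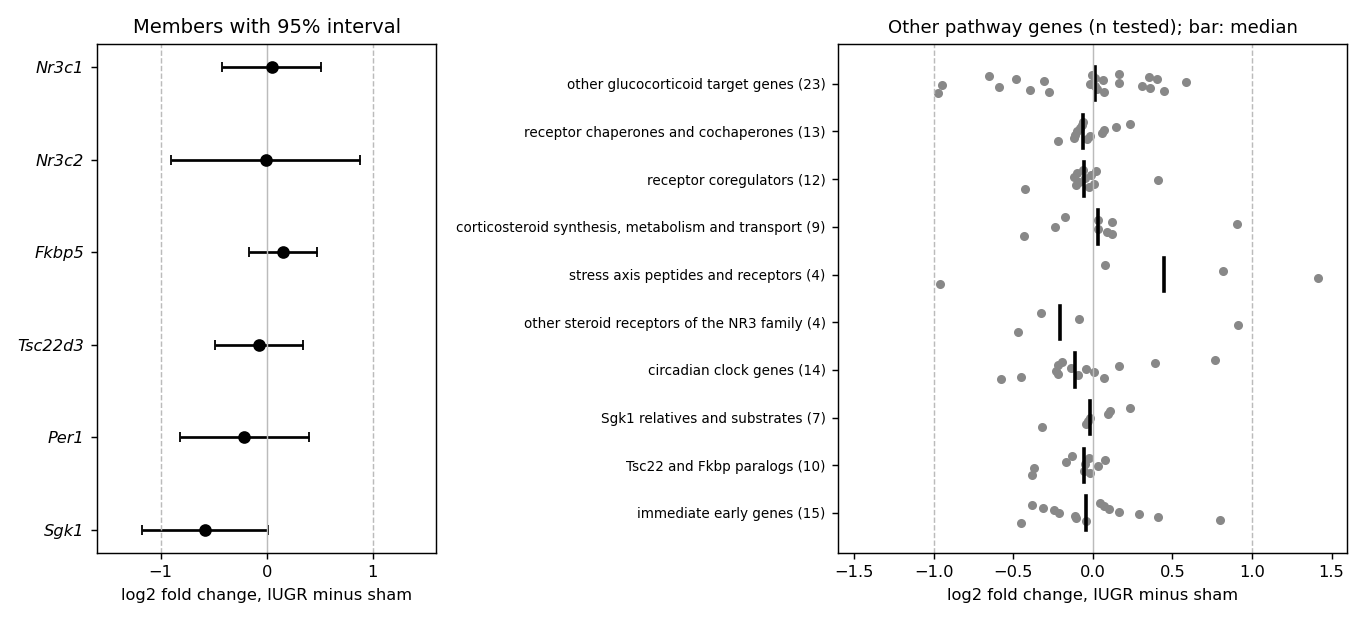
Left, log2 fold change (IUGR minus sham) of the 6 tested glucocorticoid signaling genes with 95% intervals. Right, log2 fold changes of the tested genes of 10 further lists, 1 point per gene, with the list's median as a bar and its number of tested genes in brackets; dashed lines mark -1 and 1. All 6 intervals include 0, and Avpr1a at 1.41 is the only listed gene beyond a dashed line.

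None of the 6 tested genes was called under any of 20 alternatives, which changed the normalization, the test, the filter, the gene classes, the samples or the terms of the model. In 3 of these there was little to call in any gene, with 0 of all genes called against the S1 sham samples alone, 2 against the S3 sham samples alone and 0 with a term for the Xist level, so they say nothing of stability. The direction of Sgk1 (below 0) and of Fkbp5 (above 0) was the same in all of them, and the direction of Nr3c1, Nr3c2, Tsc22d3 and Per1 changed in 2 to 10.

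**Figure D5:**
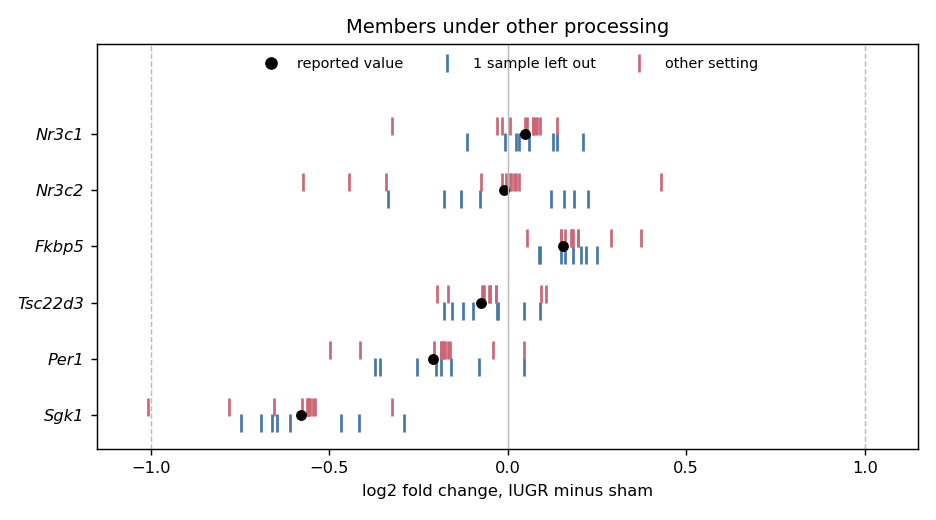
Log2 fold change (IUGR minus sham) of the 6 tested genes as reported (black), with 1 sample left out (blue) and under the other settings (red); dashed lines mark -1 and 1. Sgk1 stays below 0, between -1.01 and -0.29, Fkbp5 stays above 0, and the other 4 genes have values on both sides of 0.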

How the data were processed

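Total RNA of 4 IUGR and 4 sham hippocampi was made into stranded libraries after ribosomal RNA removal and sequenced as single reads. The authors deposited raw counts per gene. Per the labels, the submitters' processing notes name Novoalign 2.8 and mm10. The counting program, its strand setting and the annotation release are not given in the sources used here. From these counts, protein-coding genes (GENCODE M21, GRCm38) whose mean count over the 8 samples was 10 or more and below 50000 were tested in R 4.3.3 with edgeR 4.0.16 (TMM, quasi-likelihood, group as the only term), with Benjamini-Hochberg adjustment over all 13707 genes. Alternatives used DESeq2 1.42.0 and limma 3.58.1. CPM are per 1000000 of the TMM-scaled sum of counts over the tested genes, with a prior count of 2 on the log2 scale. Totals over all genes of the table are 11212632 to 16672463, which makes 10 reads less than 1 CPM. Replicate pairs within a group differed by 27.2 to 71.8 chi-square per degree of freedom, more than sampling noise, and each sample was kept as its own replicate. Samples are numbered as replicates 1 to 4 within a group, and these numbers pair no samples.

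The 8 genes and the 10 lists were chosen with earlier results of these data known. Named genes are the 8 members, the 2 genes of lowest p in each list and, for the 3 members of lowest p, the 3 genes most like each; 2 genes that this rule names are not reported here. Promoter windows are from RefSeq. No protein sequence was used.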

Additional observations from a re-analysis of the deposited data

How the results depend on the processing

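No member was called under any of the 20 alternatives, while the number of all genes called ranged from 0 to 442. The log2 fold change of Nr3c1 (reported as 0.05) was -0.016 with only the S1 sham samples (sham samples 1 and 3) and -0.029 with a term for the Xist level, and ran from -0.11 to 0.21 with each sample left out in turn. That of Nr3c2 (reported as -0.01) was 0.0095 with DESeq2 size factors, 0.024 with upper-quartile scaling, 0.0070 in DESeq2's Wald test, 0.017 without the filter, 0.030 with filterByExpr and 0.43 with only the S3 sham samples, but -0.44 with the Xist term and -0.34 with only the S1 sham samples, and ran from -0.34 to 0.22 with each sample left out. That of Tsc22d3 (reported as -0.08) was 0.094 with only the S1 sham samples and 0.11 with the Xist term, and ran from -0.18 to 0.090 with each sample left out. That of Per1 (reported as -0.21) was 0.045 with only the S3 sham samples, -0.41 with only the S1 sham samples and -0.50 with the Xist term, and ran from -0.37 to 0.045 with each sample left out. Esrrg was at 0.16 with only the S3 sham samples. The cause of these changes was not tested. The terms for mt-Rnr1 and Xist were chosen after seeing the data, and with them 143 and 0 of all genes were called. The last number of a title occurs in both groups for 2 IUGR and 3 sham samples, and no source says that it marks a shared litter or day. Their deviations from the group means correlated at -0.11, -0.085 and 0.085 in the same-numbered pairs. With this number as a replicate block over these 5 samples, also added after seeing the data, 442 of all genes and 1 listed gene (Sult1a1) were called, and the log2 fold change was -0.33 for Nr3c1, -0.57 for Nr3c2, 0.37 for Fkbp5, -1.01 for Sgk1, 0.19 for Esrrg, -0.20 for Ier3 and 0.18 for Arc. Other listed genes also moved in this fit, among them Akr1c14 at -1.08, Fkbp4 at 0.45 and Dnajb1 at -0.13. In every other alternative no listed gene was called. Depth limits Hsd11b1 and Hsd11b2 most, at 1 to 20 reads per sample.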

Other observations

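Within the IUGR group, Nr3c1, Nr3c2 and Sgk1 were all higher in samples 1 and 2 than in samples 3 and 4, and the choroid plexus and meningeal sums were as well. Residual correlations over the 8 samples, with group means removed, were 0.73 between Nr3c1 and Sgk1 and 0.76 between Nr3c2 and Sgk1. For Fkbp5 the residual correlation with the choroid plexus list was -0.52 and with the meningeal list -0.25. These values describe 8 libraries and were not tested.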
